A study of Rattus norvegicus with 12 samples.

Results

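The comparison was between cultured rat oligodendrocyte precursor cells exposed to 5 µM tunicamycin for 2 h and cells given 0 µM for the same time, with 3 libraries in each group, 6 of the 12 libraries in the series. Members were chosen by the treatment and time in the column names of the deposited table, not by any measured value. The cells of all groups had been isolated from spinal cord of adult rats, frozen, and used at passage 6 or lower. The other 6 libraries are control and 5 µM tunicamycin at 8 h, and the 12 libraries came from 3 independent experiments. Whether the controls received a vehicle is not stated in the sources used here. The study asked which early parts of the endoplasmic reticulum stress response bear on survival of the cells, and the design text places both times before cell death.

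Oligodendrocyte precursor cells are the dividing progenitors of the cells that make myelin, a membrane with some proteins that pass through the endoplasmic reticulum. Tunicamycin blocks the first step of N-linked glycosylation, so newly made glycoproteins misfold in that compartment. The unfolded protein response then starts from the sensors PERK, IRE1 and ATF6. PERK slows translation and favours the transcription factor ATF4, IRE1 splices the mRNA of XBP1, and ATF6 is cut to release a transcription factor. These routes raise chaperones, enzymes that degrade misfolded proteins, and genes of amino acid supply, and under lasting stress the pro-death factor CHOP.

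Genes appear here by Ensembl ID only. None of the 32402 IDs of the deposited table matched the reference table given with the data, and the files pair no ID with a name. The 24 lists of stress response, lineage and cell type genes therefore have no values, and the labelled cell type was not checked against its markers. The 4 genes printed by ID were chosen after their values were seen.

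The summed values of the 6 libraries differed in a way that followed the groups, while the median log2 fold change over all genes tested was −0.01. Summed FPKM (fragments scaled by gene length and library size) ran from 705097 to 752027 in the controls and from 690766 to 696233 with tunicamycin, without overlap (exact permutation test, two-sided p = 0.1, the smallest that 3 against 3 allows). The 3 most abundant genes held 5.90 to 10.2% of the sum in controls and 6.07 to 7.65% with tunicamycin, and without them the sums still did not overlap. The number of genes at 1 FPKM or more was 11360 to 11554 per library. Rank correlations were 0.951 to 0.971 within groups and 0.953 to 0.963 between them, and these ranges overlap. The absolute depth is unknown. Relative depth, from the most common ratio among 3830 genes under 1 FPKM in every 2 h library, ran from 70.5% in control replicate 2 to 100% in tunicamycin replicate 3.

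The test covered 11822 genes, those whose mean over the 6 libraries was 1 FPKM or more. The gene just inside that limit had a mean of 1.0002 FPKM and the gene just outside 0.9997 FPKM. After 2 h, 38 genes with FPKM values in both groups were higher with tunicamycin and 3 were lower at an adjusted p under 0.05 (limma on log2(FPKM + 1), Benjamini-Hochberg). A further 7 genes called higher were listed at 0 in all 3 controls, and 4 called lower were listed at 0 in all 3 treated libraries. With these the counts were 45 higher, or 0.381% of the genes tested, and 7 lower, or 0.0592%, together 0.44%. An unadjusted p under 0.05 was found for 1341 genes, where 591.1 would be expected by chance. In such bulk RNA, a change in the number of cells of a type and a change in RNA per cell cannot be told apart. A gene is called below when its adjusted p is under 0.05, and log2 fold changes are differences of log2(FPKM + 1), tunicamycin minus control.

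The count of rises called fell whichever library was left out. Such fits also have fewer residual degrees of freedom, and whether this or the library itself lowered the count was not tested. Without control replicate 1, 2 or 3 the count of rises with values in both groups was 3, 6 and 33 in place of 38. Of these, 3, 6 and 21 were among the 38. An unadjusted p under 0.05 was found for 1745, 1059 and 1853 genes in these limma fits. Without tunicamycin replicate 1, 2 or 3 the count of such rises was 4, 1 and 1, of which 3, 1 and 1 were among the 38. The genes at an unadjusted p under 0.05 then numbered 1232, 727 and 784. A fit with the replicate number as a block called 0 of these rises and 0 of the 3 falls (limma; 1048 genes at an unadjusted p under 0.05). The design text gives 4 samples to each experiment, and sample numbers in the column names run on within a replicate number, but whether that number marks the experiment is not stated in the sources used here. All 38 kept a positive log2 fold change in every 2 h fit that was run. Leaving out a library could not have turned it, since the groups did not overlap in these genes. Of the 38, 15 were called in none of the 6 fits that left out a library. A fit of all 12 libraries called 59 such rises, of which 31 were among the 38. Quantile normalization and median-ratio scaling of the 2 h libraries each called 36, of which 32 and 33 were among the 38. For each of the 52 called genes the values of the groups did not overlap, which held for 18.4% of all genes tested, 10.2% upward and 8.21% downward.

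**Figure D1:**
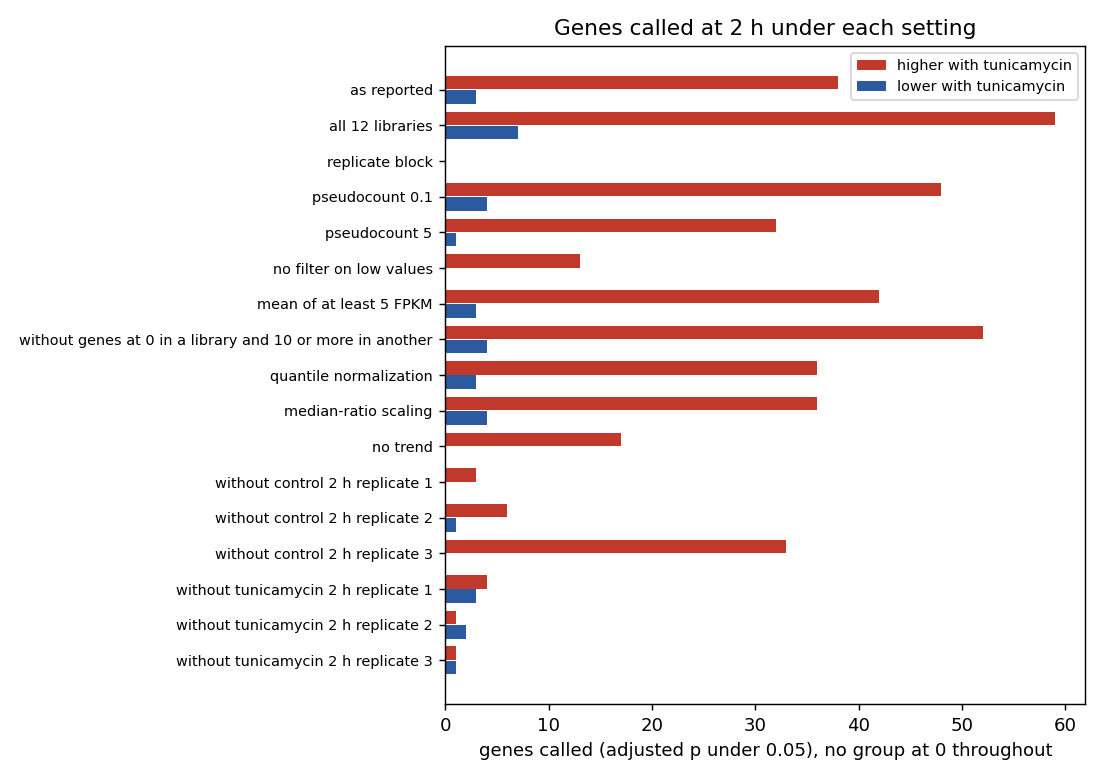
Genes called at 2 h (horizontal axis, number of genes) under each setting (vertical axis), leaving out genes with a whole group at 0; red bars are higher and blue bars lower with tunicamycin. The red bar reaches 38 as reported, 59 with all 12 libraries and 1 without tunicamycin replicate 2 or 3. The fit with array weights, with 369 higher and 136 lower, is not drawn.

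The 38 rises were modest in size and spread over the expression range. Their median log2 fold change was 0.85, against −0.01 over all genes tested, and ran from 0.38 to 2.19. As a ratio of mean FPKM the median was 1.88-fold. In 17 genes the mean rose at least 2-fold, in 6 at least 3-fold, and in 8 by less than 1.5-fold. Control means ran from 1.03 to 450.3 FPKM with a median of 15.4 FPKM, and 14 of the 38 genes stood at 20 FPKM or more in control.

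Replicates of the 38 genes lay close together. The coefficient of variation had a median of 8.11% in controls and 4.78% with tunicamycin, against 10.9% and 6.12% over the 11106 tested genes without a 0 in any of the 6 libraries. The test favours genes of small spread, so this describes what was called. In 25 of the 38 the lowest treated library was at least 1.5 times the highest control. The test also favours large differences, and this share was not computed over all genes tested.

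**Figure D2:**
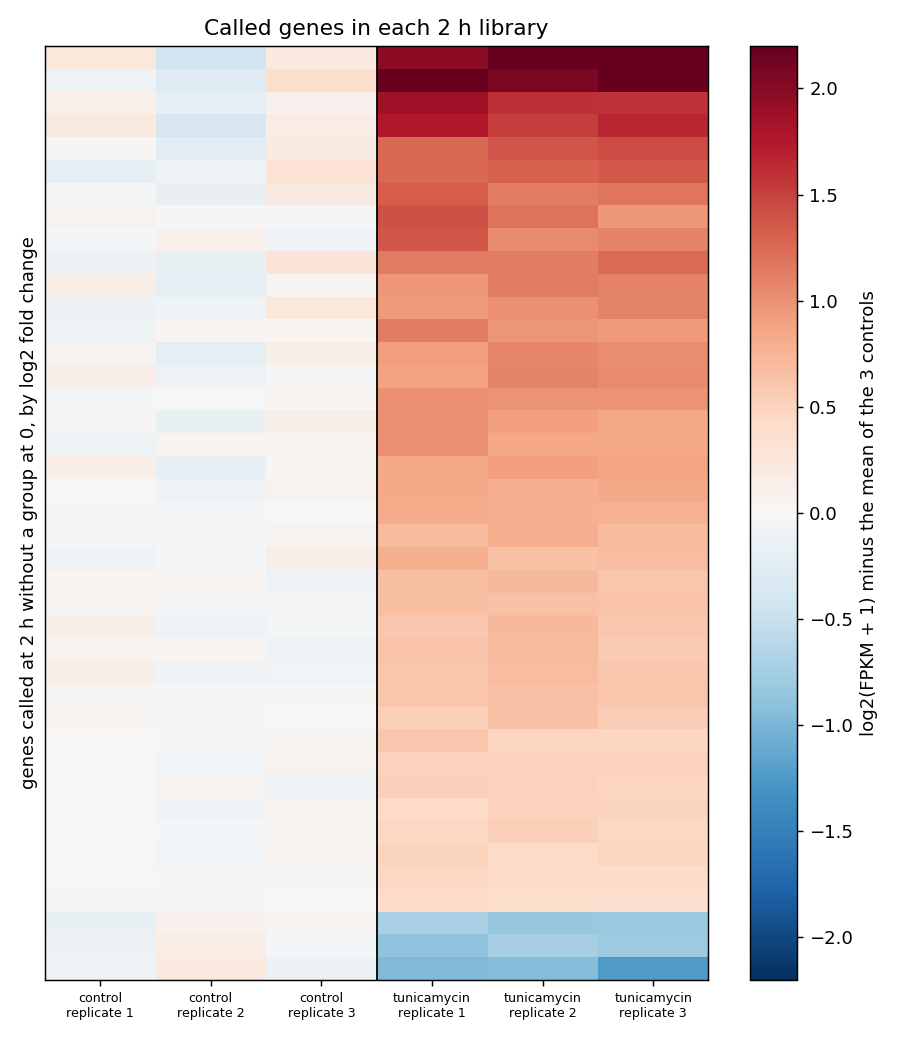
Each row is 1 of the 41 genes called at 2 h without a group at 0, ordered by log2 fold change, and each column is a library; colour is log2(FPKM + 1) minus the mean of the 3 controls. The 38 rises are red in all 3 treated libraries and the 3 falls at the foot are blue in all 3. The colour scale stops at 2.2 in either direction.

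On the log2(FPKM + 1) scale the largest rise was that of ENSRNOG00000003745, though a gene close behind it ranked above it under other settings. Its controls stood at 19.9, 12.1 and 19.6 FPKM and its treated libraries at 69.1, 85.6 and 87.2 FPKM. The lowest treated value was well above the highest control, and tunicamycin replicate 1 was the lowest of its group. Means were 17.2 ± 4.42 and 80.6 ± 10.04 FPKM (SD, n = 3 each), a ratio of 4.69, and the log2 fold change was 2.19 ± 0.21 (SE; limma adjusted p = 0.0225). The call was lost in 7 of 18 alternatives, among them leaving out control replicate 1 or 3 or any 1 of the treated libraries; its adjusted p over the alternatives ran from 0.00343 to 0.187, while the log2 fold change stayed between 1.96 and 2.51.

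That second gene went from 8.95, 7.86 and 13.0 FPKM in control to 50.9, 44.0 and 47.9 FPKM with tunicamycin. Its ratio of means, 4.79, was the highest among the 38, and its log2 fold change was 2.18 ± 0.18 (SE; limma adjusted p = 0.0145). The groups were far apart, with control replicate 3 the highest of its group. With a pseudocount of 0.1 its log2 fold change was above that of ENSRNOG00000003745, 2.28 against 2.25, as it was without control replicate 3 (2.37 against 2.29) or without tunicamycin replicate 2 (2.23 against 2.14) or 3 (2.17 against 2.13). Leaving out control replicate 1 or 2, or any treated library, lost this call too.

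Among the 38 rises, the call of ENSRNOG00000016885 alone held in all 6 fits that left out a library. Controls stood at 66.9, 68.0 and 70.2 FPKM and treated libraries at 139, 136.3 and 136.7 FPKM. Replicates within each group were almost level and the groups differed about as much in every pairing. Means were 68.4 ± 1.68 and 137.3 ± 1.45 FPKM (SD, n = 3 each), a ratio of 2.01, and the log2 fold change was 1.00 ± 0.05 (SE; limma adjusted p = 0.00309). It was called in 17 of 18 alternatives, with an adjusted p from 0.00039 to 0.134 (limma). The 18 include the 6 fits by which the gene was picked.

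The most abundant gene to rise had controls at 494, 393.7 and 463.1 FPKM and treated libraries at 799.2, 841.4 and 821 FPKM. It rose from 450.3 ± 51.4 to 820.5 ± 21.1 FPKM (SD, n = 3 each); on the log2 scale this was 0.87 ± 0.10 (SE; limma adjusted p = 0.0389). The smallest rise called was from 14.8 ± 0.313 to 19.6 ± 0.314 FPKM (SD, n = 3 each), a ratio of 1.32. Replicates of that gene varied less than those of most genes.

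Few falls were seen, and 1 of them had an unusual pattern of values. ENSRNOG00000058739 stood at 20.5, 25.4 and 22.1 FPKM in control and 11.7, 13.1 and 12.5 FPKM with tunicamycin. The groups did not overlap, and means were 22.7 ± 2.52 and 12.4 ± 0.697 FPKM (SD, n = 3 each). Its log2 fold change was −0.81 ± 0.09 (SE; limma adjusted p = 0.0409, and from 0.00765 to 0.256 over 18 alternatives, 9 of which lost the call, including each that left out a library). The gene with the smallest fall went from 5.34, 6.63 and 6.41 to 3.33, 3.00 and 3.03 FPKM, and its log2 fold change was −0.79 ± 0.10 (SE; limma adjusted p = 0.0464).

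ENSRNOG00000057952 had the largest fall among genes with values in both groups. Controls stood at 66.2, 82.8 and 64.9 FPKM and treated libraries at 35.8, 36.0 and 29.2 FPKM, and the log2 fold change was −1.06 ± 0.13 (SE; limma adjusted p = 0.0464, and from 0.0112 to 0.228 over 18 alternatives, 10 of which lost the call, including each that left out a library). Divided by each library's relative worth of 1 fragment, the 3 control values lay within 1.03-fold of each other, as did the 3 treated values, and the groups differed 2.02-fold. It was the only gene of the 11106 without a 0 whose scaled values lay within 5% in both groups. In fragments, this corresponds to 1 number shared by the treated libraries and about 2 times that number in each control; the number itself cannot be read from FPKM. At 8 h the gene was listed at 0 in all 3 controls and at 40.5, 57.2 and 31.9 FPKM with tunicamycin, so no fold is given for that time.

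**Figure D3:**
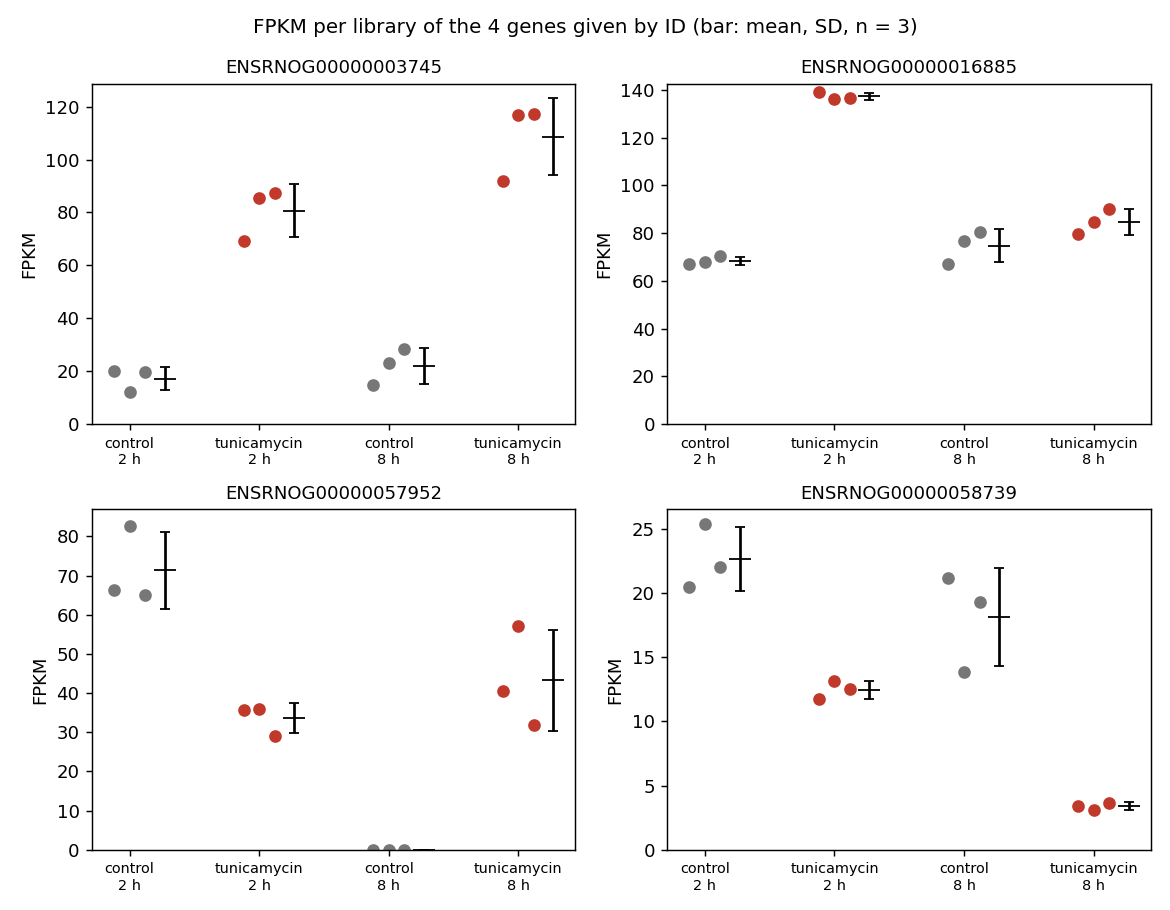
FPKM (vertical axes, from 0) of the 4 genes given by ID in each of the 12 libraries, by group; points are libraries, and the bar beside them is the mean with its SD (n = 3). With tunicamycin, ENSRNOG00000003745 went from a mean of 80.6 FPKM at 2 h to 108.6 FPKM at 8 h, and ENSRNOG00000016885 went from 137.3 FPKM at 2 h to 84.7 FPKM at 8 h. Over the same times their control means went from 17.2 to 22.0 FPKM and from 68.4 to 74.7 FPKM.

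Genes listed at 0 in a whole group gave 11 of the 52 calls. There were 391 such genes among those tested, and 308 of them had a value above 0 in 1 library only, 69 in 2 and 14 in 3. All 11 called genes belonged to the 14. In 9 of the 11, the values after scaling were whole multiples of the smallest within 5%, as they were in all 3 of the genes not called. The 5% was taken of the multiple, so values many times the smallest pass whatever they are. In the 11 called genes no scaled value was above 2.00 times the smallest. The share expected by chance was not computed. In 6 of the 11 all 3 values were equal within 5%, and in 0 of the 3 not called; 2 called genes held the same values in every 2 h library. In 1 gene the 3 treated values of 18.5, 18.7 and 14.9 FPKM came within 1.02-fold after scaling, against 0 in all controls. The standard errors of the 11, 0.109 to 0.299 on the log2 scale, were above the median of 0.104 over all genes tested, and their log2 differences from the group at 0 were large. An exact 0 in a table of this kind can also be a failed estimate, so no fold is given for these genes and they are left out of the ranges above.

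Most genes showed no called change, and the intervals do not exclude changes as small as many of those called. For 90.3% of genes tested, the 95% interval of the log2 fold change lay between −1 and 1. The median of the 38 called rises, 0.85, is itself inside those limits. Because 1 is added to each FPKM value, the limits are wider than 2-fold in FPKM for low genes. In 1 called gene a log2 fold change of 0.90 went with a ratio of mean FPKM of 2.05. The share with an interval inside those limits was 78.7% among 3028 genes with a mean of 1 to 5 FPKM. The median half-width of the interval there was 0.37. It was 93.5% among 4052 genes at 5 to 20 FPKM, 95.1% among 3560 genes at 20 to 100 FPKM and 94.8% among 1182 genes at 100 FPKM or more. Without counting genes with a group at 0, calls were 3 higher and 1 lower in the lowest class, 14 and 1 in the next, 19 and 1 at 20 to 100 FPKM, and 2 and 0 in the highest. Where point estimates were large the test often did not call them: of 33 genes with a log2 fold change of at least 1 and no 0 in any of the 6 libraries 15 were called, and of 13 with −1 or less 1 was called.

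**Figure D4:**
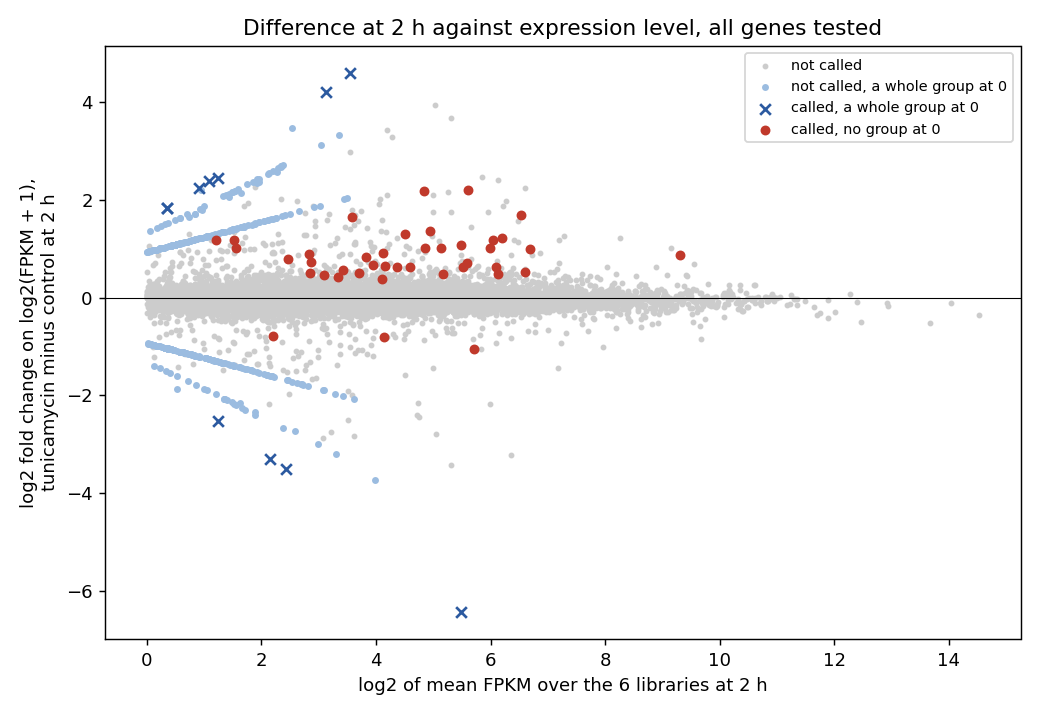
Log2 fold change at 2 h (vertical axis) against log2 of the mean FPKM over the 6 libraries (horizontal axis) for the 11822 genes tested. Red points are the 41 called genes with values in both groups, blue crosses the 11 called genes with a group at 0, and pale blue points, lying on lines, the other genes with a group at 0.

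The 8 h libraries took no part in choosing the 2 h genes and were fitted on their own. Of the 38 rises, 30 were also called higher with tunicamycin at 8 h, 7 were not called and 1 was called lower (limma, adjusted p under 0.05). Over all 11822 genes, 11.5% were called higher and 10.2% lower in that fit. The point estimate at 8 h was above 0 in 33 of the 38 and in 46.7% of all genes tested. Without control 8 h replicate 2, 28 of the 38 were called higher, 9 not and 1 lower, against 15.5% and 16.7% of all genes. Of the 3 falls, 2 were called lower at 8 h, and the third is the gene listed at 0 in the 8 h controls.

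Over all 38 rises the median log2 fold change was 0.85 at 2 h and 1.03 at 8 h. Among the 30 genes called higher at both times, 25 had the larger point estimate at 8 h. In these 25, picked for that order, the medians were 0.73 at 2 h and 1.58 at 8 h, and 16 of the 25 passed the test of the difference between the times (limma interaction on all 12 libraries, adjusted p under 0.05; 13.2% of 12056 genes were called in that fit). The steepest growth was in a gene at 1.74, 1.29 and 1.87 FPKM in control and 3.98, 4.55 and 4.30 FPKM after 2 h. By 8 h its controls stood at 2.21, 2.78 and 1.90 FPKM and its treated libraries at 41.8, 46.7 and 51.3 FPKM. The difference between its log2 fold changes was 2.85 ± 0.18 (SE; limma adjusted p = 9.15e-06). The 2 h fold change chose these genes and enters the interaction, so the differences between the times given for called genes here and in what follows are descriptions.

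The leading early rises differed in their values at 8 h. The third largest went from 46.4, 37.2 and 46.2 FPKM in the 2 h controls to 160.3, 133 and 132.3 FPKM, and at 8 h from 43.2, 41.1 and 44.5 FPKM in control to 721.1, 712.4 and 700.1 FPKM. Its log2 fold change was 1.69 ± 0.12 at 2 h and 4.02 ± 0.06 at 8 h (SE), and the difference was 2.33 ± 0.15 (SE; limma interaction adjusted p = 1.05e-05). For the 2 above it the difference was not called and its error leaves growth or decline possible. ENSRNOG00000003745 stood at 14.8, 22.9 and 28.4 FPKM in the 8 h controls and 91.8, 116.8 and 117.2 FPKM with tunicamycin, and its log2 fold change was 2.29 ± 0.26 (SE; limma adjusted p = 0.00522). The difference from 2 h was 0.10 ± 0.34 (SE; limma interaction adjusted p = 0.907), a standard error larger than the difference itself. The second largest rise stood at 2.29 ± 0.14 on the log2 scale at 8 h, and its difference was 0.12 ± 0.24 (SE; limma interaction adjusted p = 0.822). A further 5 genes called at both times had a smaller point estimate at 8 h, and 0 of the 5 passed the test of the difference.

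Other early rises were not called at 8 h, and 1 had turned. ENSRNOG00000016885 stood at 66.9, 76.7 and 80.4 FPKM in the 8 h controls and 79.4, 84.6 and 90.2 FPKM with tunicamycin, and these groups overlap. Its log2 fold change at 8 h was 0.18 ± 0.09 (SE; limma adjusted p = 0.237), and the difference from 2 h was −0.81 ± 0.11 (SE; limma interaction adjusted p = 0.00125). The gene that turned stood at 10.8, 11.7 and 16.0 FPKM in the 2 h controls and 31.6, 32.7 and 33.8 FPKM after 2 h of tunicamycin. At 8 h its controls were at 10.8, 15.7 and 14.4 FPKM and its treated libraries at 2.99, 5.21 and 5.20 FPKM, so the order of the groups was the opposite. The log2 fold change went from 1.30 ± 0.14 to −1.43 ± 0.24 (SE), and the interaction was called (limma adjusted p = 0.000189). Counting ENSRNOG00000016885, the interaction was called for 4 of the 7 genes that were not called at 8 h.

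ENSRNOG00000058739 had a larger fall at 8 h. Its treated libraries were at 3.45, 3.09 and 3.67 FPKM at 8 h and its controls at 21.2, 13.9 and 19.3 FPKM. The log2 fold change was −2.10 ± 0.18 at 8 h, and the difference from 2 h was −1.29 ± 0.20 (SE; limma interaction adjusted p = 0.0021). For the smallest of the 3 falls the 8 h estimate was −0.88 ± 0.15 on the log2 scale, and its difference from 2 h, −0.09 ± 0.19, was not called (SE; limma interaction adjusted p = 0.83).

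**Figure D5:**
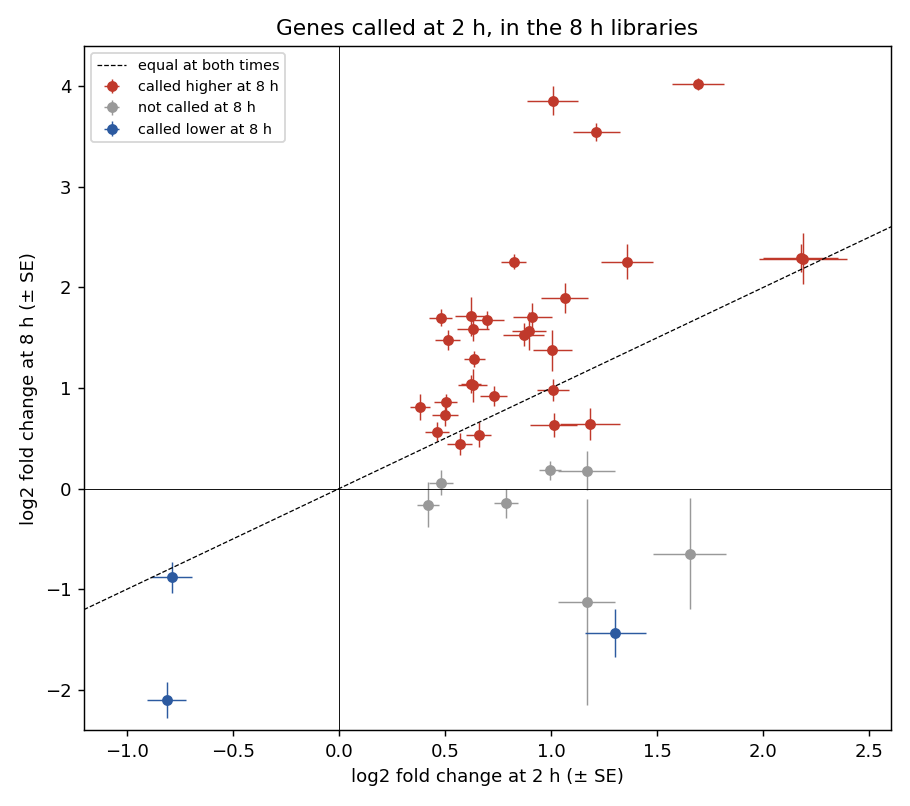
Log2 fold change with SE at 2 h (horizontal axis) and at 8 h (vertical axis), each fitted on its own 6 libraries, for 40 of the 41 genes called at 2 h with values in both groups; the gene at 0 in the 8 h controls is left out. Of the 38 rises, 25 called higher at 8 h lie above the dashed line of equal change, 5 below it, 7 in grey were not called, and 1 in blue had turned.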

How the data were processed

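Per the file headers, the authors deposited 1 table of FPKM values with a column per library. The submitters' processing notes list build rn6 and, without roles, the tools Cuffnorm, Cuffdiff 2.1.1, Cufflinks 2.2.1, TopHat2 2.0.4 and FastQC 0.10.1; the way of counting fragments is not stated in them. Columns were matched to samples by treatment, time and replicate number in their names. Values were transformed to log2(FPKM + 1), genes averaging 1 FPKM or more over the 6 libraries were kept, and group means were fitted with limma 3.58.1 in R 4.3.3 (variance trend, 4 residual and 1.89 prior degrees of freedom), without a replicate block. Members and lists were chosen with earlier results of these data known. The naming rule asked, without symbols, for the 2 largest rises and falls by ID; all 4 were listed at 0 in a whole group. The IDs printed are instead the largest rise on that log2 scale with values in both groups, the rise called in every fit without a library, and the 2 largest such falls. Alternatives were other fits, pseudocounts, filters and scalings, and each library left out. P-values reflect the spread of 3 libraries per group; the counting error of low genes is unknown, as depth is.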

Additional observations from a re-analysis of the deposited data

Results flagged for a closer look

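Of the 4 genes given by ID, 2 with values in every group passed the limma interaction test for a difference between the tunicamycin effects at 8 h and 2 h, as did 13.2% of all 12056 genes in that fit. Both were picked after their values were seen and their 2 h effect enters the difference, so it is a description. For ENSRNOG00000016885 the difference of the log2 fold changes, 8 h minus 2 h, was −0.81 ± 0.11 (SE; adjusted p = 0.00125), and its adjusted p was under 0.05 in all 16 alternatives. For ENSRNOG00000058739 it was −1.29 ± 0.20 (SE; adjusted p = 0.0021), also under 0.05 in all 16 alternatives. For ENSRNOG00000057952 the fitted difference was 6.48 and also passed, but the gene was listed at 0 in all 3 controls at 8 h, so neither its size nor its direction is read.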

How the results depend on the processing

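Of 45 genes higher and 7 lower at 2 h, limma with the replicate number as a block called 2 and 1, no filter on low values called 23 higher, no variance trend 23 and 4, and array weights 378 and 152; without genes at 0 in any 2 h library (added after seeing the data) 4 were lower. Leaving out a library gave 9 to 39 higher and 4 to 15 lower. Without genes at 0 throughout a group (38 higher, 3 lower), all 12 libraries gave 59 and 7, the block 0 and 0 (1048 genes at an unadjusted p under 0.05), no filter 13 and 0 (1728 genes), no trend 17 and 0 (1302 genes), array weights 369 and 136, and a pseudocount of 5 gave 1 lower; leaving out a library gave 1 to 33 and 0 to 3. None of the falls called in those fits without a library was among the 3 lower. Array weights rested on unequal libraries, with 4.83 for tunicamycin replicate 3 and 0.195 for control replicate 3. Whether the replicate numbers pair the samples by experiment is not stated in the sources used here. Deviations of same-numbered libraries correlated at −0.07, −0.05 and 0.02, only the replicate 3 libraries correlated best with their own number, and the block lost the calls of all 4 genes given by ID. The difference between the times for ENSRNOG00000003745, 0.10, was −0.15 to 0.32 over its alternatives and turned negative without control 2 h replicate 1 (−0.02) or 3 (−0.007), tunicamycin 2 h replicate 1 (−0.007) or control 8 h replicate 1 (−0.15). That of the second largest rise, 0.12, ran from −0.074 without control 2 h replicate 3 to 0.256 when a library was left out. The other values run for the 4 genes given by ID and the second largest rise kept their direction. For the fold changes at 2 h, leaving out a library could not have turned it, since the groups did not overlap. Differences between the times of all other genes were not run under alternatives. Fold changes at 8 h were rerun only without control 8 h replicate 2. Counts per gene list were not run, since no ID had a name. Relative depth ran from 70.5% to 100% between libraries, and changes of genes resting on a few fragments could not be told from counting error.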
